A study of Mus musculus with 8 samples.

Results

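miR-122, miR-192 and miR-194 (mmu-miR-122, mmu-miR-192 and mmu-miR-194 on the array) are miRNAs of liver and kidney that also circulate in blood, and here they were measured in mouse skeletal muscle. They were picked by name, with earlier results of these data known, and make up 3 of the 567 mouse miRNAs on the array. The RNA came from skeletal muscle, carried the dye Cy3 and was read on 8 1-colour Agilent arrays, 4 titled control and 4 titled diabetic. Per the series text, the diabetic mice were obese C57BL/KsJ db/db mice, which lack a working leptin receptor, and the controls were C57BL/KsJ db+ mice of the same background. Each sample's own strain entry gives the opposite genotype (db/db for control, db+ for diabetic), so every difference below follows the titles and is given as diabetic minus control. The labels do not give the age or sex of the mice, which muscle was taken, or whether each array held RNA of a separate animal. The p-values therefore measure only the spread between these arrays, which may be partly technical.

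miRNAs are short RNAs that guide the silencing complex to mRNAs, mainly through the seed, bases 2 to 8 of the mature strand. miR-122 is the most abundant miRNA of hepatocytes, supports hepatic lipid and cholesterol metabolism, and is released into plasma when the liver is injured. miR-192 and miR-194 are processed from shared primary transcripts, which are known from liver, kidney and gut epithelium. None of the 3 belongs to the muscle-specific group of miR-1, miR-133 and miR-206.

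In the RefSeq tables of assembly GRCm38.p6, 2 of the 3 members had a mature sequence, miR-192 and miR-194. They are shown with miR-215, because the genes of these 3 miRNAs form the 2 clusters that produce miR-192 and miR-194. The seed is in capitals and each strand reads 5′ to 3′.
miR-192: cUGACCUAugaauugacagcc
miR-215: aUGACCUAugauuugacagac
miR-194: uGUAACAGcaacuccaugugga
miR-192 and miR-215 share the seed UGACCUA, which 2 of the 1679 mature mouse miRNAs in the table hold (0.119%), these 2 themselves. The seed of miR-194, GUAACAG, was held by miR-194 alone among the 1679. Over their 21 bases, miR-192 and miR-215 are identical at 18 positions. Counted from 1 at the 5′ end, miR-192 differs from miR-215 by C1A, A12U and C20A.

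The mature miR-194 strand is the same in both of its hairpins, and each hairpin lies beside a member of the other seed family. Mir194-2 (chr19:6264643-6264728, plus strand) ends 115 bases before Mir192 (chr19:6264844-6264932, plus strand). Mir194-1 (chr1:185313319-185313385, plus strand) ends 195 bases before Mir215 (chr1:185313581-185313692, plus strand). These coordinates belong to GRCm38.p6, while the array design names the mm9 build and gives no position for its probes. The neighbouring hairpins of chromosome 19 are shown because one of their mature strands was detected in muscle and the other was not. Capitals mark the mature strand.
Mir194-2: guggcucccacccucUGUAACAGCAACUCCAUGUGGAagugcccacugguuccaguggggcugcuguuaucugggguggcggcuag
Mir192: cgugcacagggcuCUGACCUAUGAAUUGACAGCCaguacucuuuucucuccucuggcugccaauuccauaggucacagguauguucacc

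Each of the 3 miRNAs had 2 probes of 10 spots per array. A spot's processed intensity is its brightness after subtraction of a background, and the scanner software flags a spot that is well above background. Detection of a probe required this flag on 50% or more of its spots, outliers left out, and detection of a miRNA required 1 detected probe. By this rule miR-192 was detected on 7 of the 8 arrays, miR-122 on 5 and miR-194 on 0. Over all 567 mouse miRNAs, 402 (70.9%) were detected on no array and 95 on all 8, so the absence of miR-194 was the usual outcome. miR-192 was missed on 1 array, control 1. miR-122 was detected on control 1, control 4, diabetic 1, diabetic 3 and diabetic 4. The scanner software's own call per miRNA was positive for miR-192 on 8 arrays, for miR-122 on 6 and for miR-194 on 0, and the 1 array it added for miR-122 was diabetic 2.

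Counted over single spots, 67 of 157 spots of miR-192 were well above background, 50 of 153 of miR-122 and 0 of 155 of miR-194. For comparison, 0 of the 5222 negative-control spots on the 8 arrays carried the flag. In miR-192 the flagged spots were shared evenly, 33 of 78 on the control and 34 of 79 on the diabetic arrays. In miR-122 they were 19 of 78 and 31 of 75, and the 19 came from control 1 and control 4 alone. Spots of 1 array share its RNA and are not replicates of a group.

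**Figure D1:**
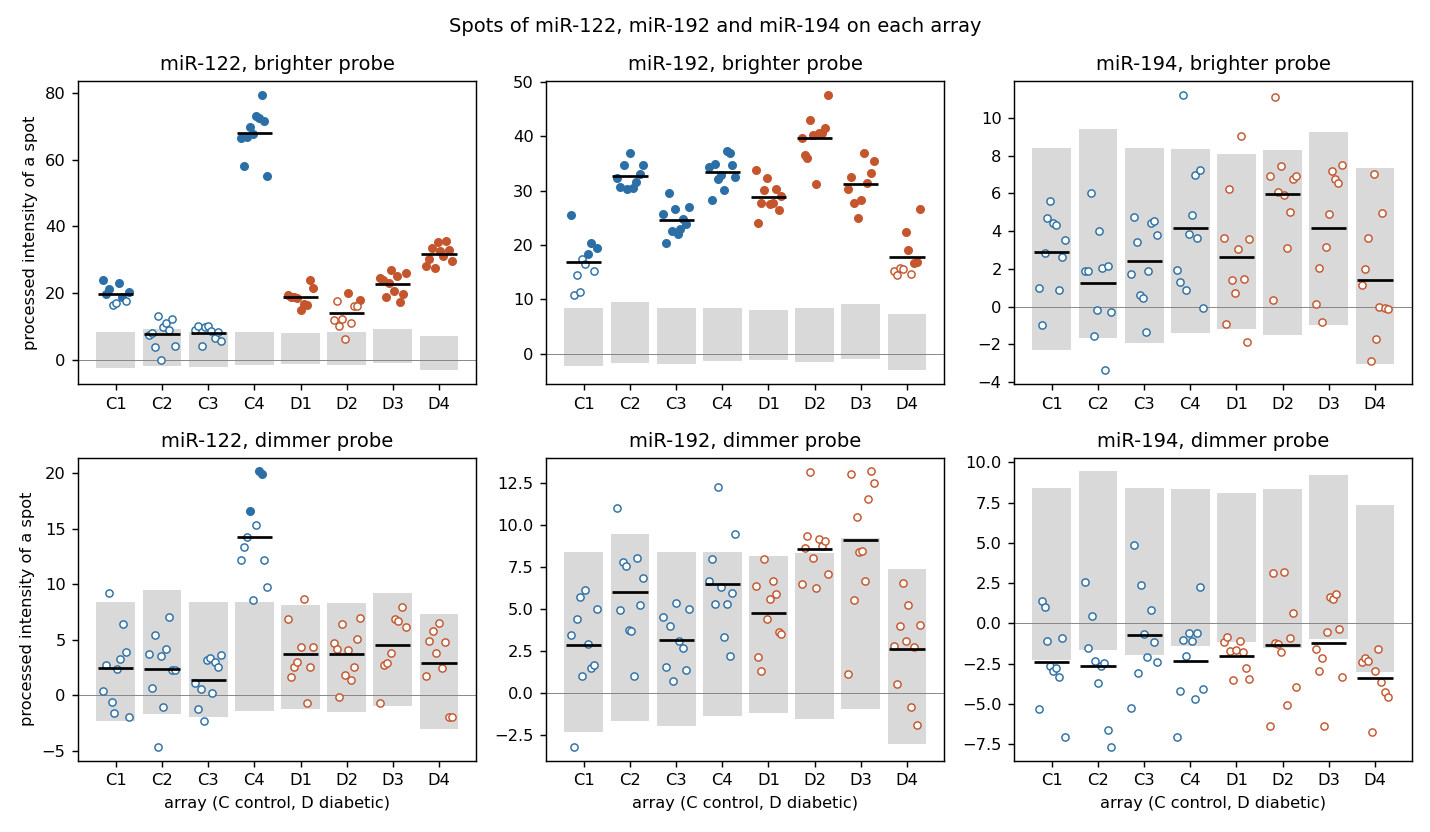
Processed intensity of every spot (y axis, outlier spots left out) on the 8 arrays (x axis, C control in blue, D diabetic in orange), with the brighter probe of each miRNA above and the dimmer below, each panel on its own scale. Filled points are well above background, black lines are means over spots and grey boxes span the 5th to 95th percentile of negative-control spots. Control 4 stands above the other arrays in both probes of miR-122, with means of 68.0 and 14.2, while no spot of miR-194 is filled.

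Array brightness bears on these dim signals. The 75th percentile of intensity over the 152 probes detected on all 8 arrays ran from 219 on diabetic 4 to 618 on control 2, and did not differ between the groups beyond their spread (control log2 8.57 ± 0.47 and diabetic 8.46 ± 0.49, SD, n = 4, exact permutation p = 0.8, two-sided). The arrays detected 102 to 147 miRNAs, fewest on diabetic 4 and most on control 4, and none of their mouse miRNA spots reached saturation. A relative level below is the mean of a miRNA's probes in percent of that 75th percentile. On the log2 scale, levels under 1.62% (−5.95) were raised to that floor. The control arrays filled row 1 of the slide and the diabetic arrays row 2, so slide row and diabetes cannot be told apart.

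miR-122 was the member that varied most between arrays, and its difference between the groups was small beside that variation. The brighter probe had a mean intensity of 19.9 on control 1, 7.96 on control 2, 8.09 on control 3 and 68.0 on control 4. The corresponding diabetic values were 18.9, 14.0, 22.6 and 31.7, in the order of replicates 1 to 4. Control 4 was thus the brightest of all 8 arrays, control 2 and control 3 were the dimmest, and the diabetic arrays and control 1 lay between them. On control 2 and control 3 the probe's mean was close to the 95th percentile of the negative-control spots, 9.44 and 8.40. Within an array the SD over the spots kept was 2.14 to 7.16, which is technical spread within 1 hybridisation and does not measure variation between arrays.

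Relative to array brightness, miR-122 stood at 3.62%, 0.834%, 1.42% and 12.6% on control 1 to control 4. The diabetic arrays had 3.15%, 1.84%, 3.30% and 7.87%. Control 4 was 1.60 times the next array, diabetic 4, and the median of the arrays other than control 4 was 3.15%. The order from the top was control 4, diabetic 4, control 1, diabetic 3, diabetic 1, diabetic 2, control 3 and control 2. The groups overlapped throughout, with both the highest and the lowest array in the control group. Diabetic 4 had the lowest 75th percentile of all arrays, and its intensity for the brighter probe also came directly after that of control 4.

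On the log2 scale the relative level of miR-122 was −4.92 ± 1.40 on the control and −4.84 ± 0.87 on the diabetic arrays (SD, n = 4), with 2 of the control values at the floor. The difference, diabetic minus control, was 0.08 (SE 0.62, 95% interval −1.28 to 1.44, limma adjusted p = 0.933 over 126 tested miRNAs). This interval spans a more than 2-fold change either way. With a replicate block, which pairs same-numbered arrays, the SE was 0.28 and the 95% interval −0.51 to 0.68, also on both sides of 0. The floored values entered both fits, and these arrays do not fix the direction. On the linear scale the means were 4.61% ± 5.45 and 4.04% ± 2.64 (SD, n = 4), with the opposite sign of the difference, −0.574 percentage points (two-sided exact permutation p = 0.886, smallest possible 0.0286). Within slide columns 1 to 4, each holding 1 array of either group, the log2 difference was −0.20, 0.19, 1.02 and −0.68. In columns 2 and 3 the control value had been raised to the floor, so those differences would be larger without it. Control 4 and diabetic 4, the highest array of each group, shared column 4.

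Single arrays decided the sign for miR-122. Without control 4 the log2 difference was 0.73 (SE 0.45, limma adjusted p = 0.495), the largest among the fits that left out 1 array. Without diabetic 4 it was −0.31, and it was −0.26 without control 2 and −0.26 without control 3. The values without control 2 and without control 3 are equal because miR-122 had been raised to the same floor on both arrays. They are therefore not separate checks. Leaving out diabetic 2 gave 0.39. The floor also set the size of the difference. With all arrays kept and the floor 4 times lower, it was 0.37 (SE 0.75, limma adjusted p = 0.862), against 0.08 with the floor used here. The control SD of miR-122, 1.40, was the largest of the 126 tested miRNAs, where the median control SD was 0.43. Its diabetic SD, 0.87, ranked 6 of 126, against a median of 0.23. On control 4 the log2 level of miR-122 lay 0.68 above its highest level on any other array. This gap ranked 11 of 126, and the largest was 1.33, for miR-410, so standing out on control 4 was not particular to miR-122.

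**Figure D2:**
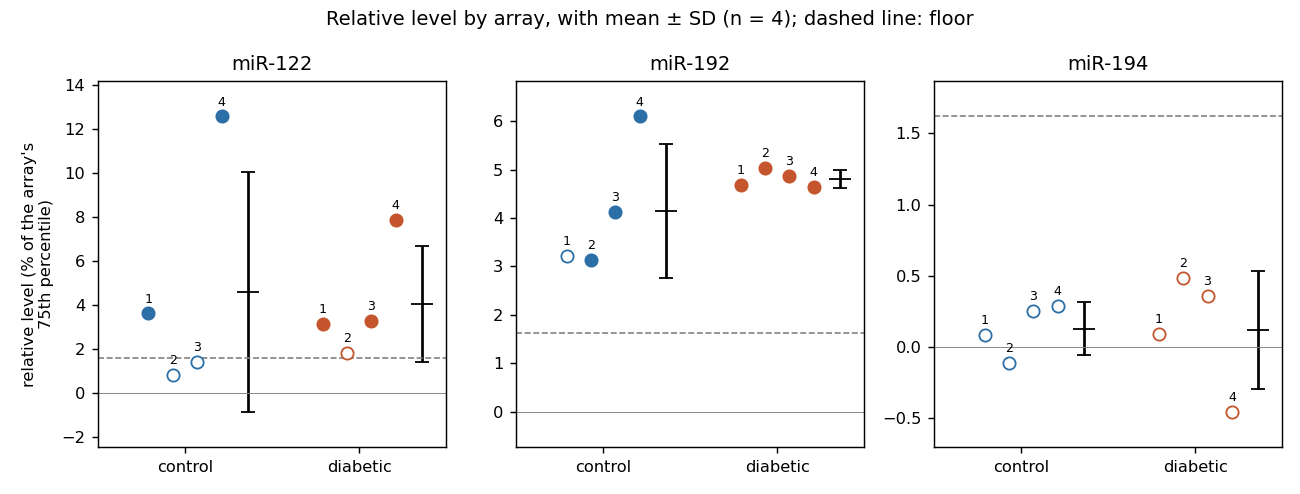
Relative level of each miRNA (y axis, percent of the array's 75th percentile, each panel on its own scale) on the control and diabetic arrays, numbered by replicate. Filled points are detected, open points not detected, bars are mean ± SD (n = 4) and the dashed line is the floor of 1.62%. The groups overlap for all 3 miRNAs, the diabetic arrays lie close together for miR-192 (4.64% to 5.03%), and every miR-194 value lies under the floor.

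After scaling, miR-192 had an even level on the diabetic arrays and a wider one on the control arrays. Unscaled, the brighter probe of miR-192 varied in both groups, with an SD of 7.77 on the control and 9.02 on the diabetic arrays (n = 4). Its brighter probe had a mean intensity of 17.0, 32.8, 24.5 and 33.4 on control 1 to control 4. On diabetic 1 to diabetic 4 it was 28.9, 39.7, 31.2 and 17.8. The lowest intensities, on control 1 and diabetic 4, fell on the 2 arrays with the lowest 75th percentile, 308 and 219. On control 1 the flag for well above background was set on 4 of 10 spots of this probe and on diabetic 4 on 5 of 10, just under and just at the 50% limit. On the other 6 arrays every spot kept was flagged.

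After scaling, miR-192 stood at 3.22%, 3.13%, 4.12% and 6.10% on the control arrays in order of replicate. The diabetic arrays had 4.68%, 5.03%, 4.88% and 4.64%. Of the control arrays, 3 lay below all 4 diabetic arrays and control 4 lay above them, so the groups overlapped through control 4 alone. The highest array was 1.95 times the lowest.

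The mean log2 level of miR-192 was −4.65 ± 0.45 on the control and −4.38 ± 0.05 on the diabetic arrays (SD, n = 4). Diabetic minus control was 0.27 (SE 0.24, 95% interval −0.26 to 0.79), a 1.20-fold higher mean that did not pass the threshold of 0.05 (limma adjusted p = 0.699). An exact permutation test over the arrays gave a two-sided p of 0.314. Without control 4 the difference was 0.47 (SE 0.22, limma adjusted p = 0.328), and without control 2 it was 0.15. Within slide columns 1 to 4 it was 0.54, 0.68, 0.24 and −0.39. The diabetic SD of 0.05 ranked 120 of 126, among the smallest, while the control SD of 0.45 was near the median of 0.43. Within diabetic 4 the spots of the brighter probe had an SD of 3.92 around a mean of 17.8. Whether the diabetic evenness goes beyond the precision of so dim a probe was not tested.

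Of the 3 members, 2 were detected on the required 4 arrays and entered the test, and 0 of these 2 passed, both over all miRNAs with limma and at an unadjusted p under 0.05. Over all tested miRNAs, 6 of 126 passed (4.76%), all of them higher, and 21 had an unadjusted p under 0.05 (16.7%), 8 of them higher and 13 lower. The groups overlapped for both members, while they did not overlap for 11 of 126 tested miRNAs (8.73%). The median log2 difference of all 126 was −0.06. When all mouse probes set the percentile, that median moved to 0.26, and relative to it the differences were 0.20 for miR-122 and 0.33 for miR-192. Under quantile normalization miR-192 had a log2 difference of 0.55 with a 95% interval of 0.11 to 0.99, and its adjusted p was 0.159.

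**Figure D3:**
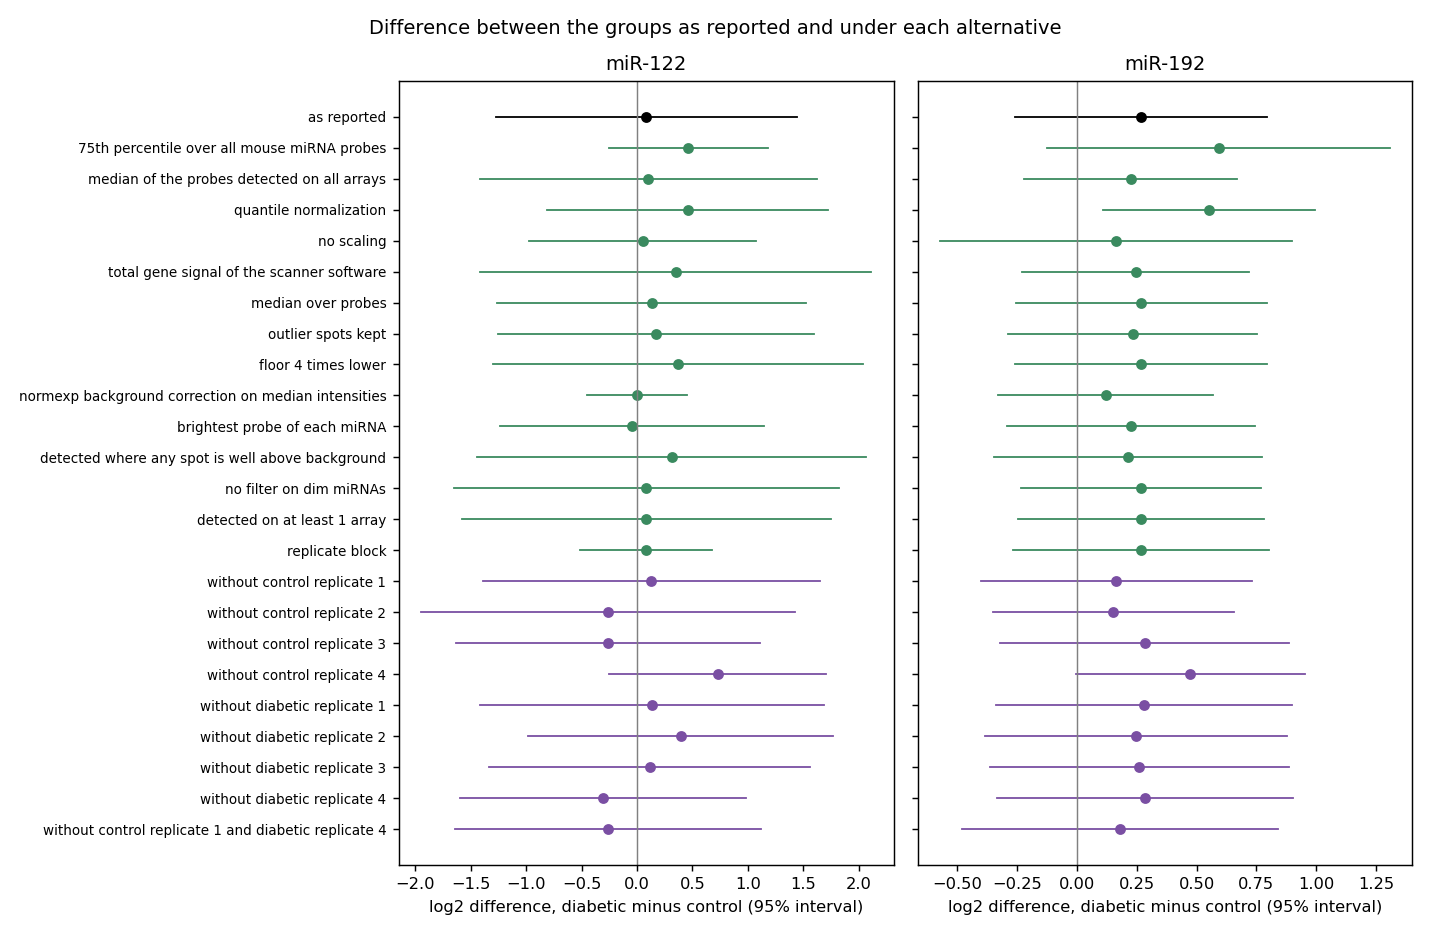
Log2 difference of miR-122 (left) and miR-192 (right), diabetic minus control, on the x axis with its 95% interval from limma, as reported (black), under other processing (green) and with arrays left out (purple). Points for miR-122 lie on both sides of 0, from −0.31 to 0.73, while those for miR-192 are all above 0, from 0.12 to 0.59. Every interval includes 0 except that of miR-192 under quantile normalization.

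Both probes of miR-122 were brightest on control 4. Its dimmer probe was not detected on any array by the 50% rule. It read 14.2 there and 1.44 to 4.56 on the other 7 arrays, and 3 of its 10 spots on control 4 were well above background, the only such spots of this probe. For miR-192 the dimmer probe was not detected on any array, with means of 2.62 to 9.08, highest on diabetic 3 and diabetic 2. For both miRNAs, detection thus came from 1 of the 2 probes.

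miR-194, which shares a primary transcript with miR-192, was not well above background on any of the 8 arrays. Its brighter probe had means of 2.90, 1.25, 2.43 and 4.19 on the control arrays and 2.64, 5.97, 4.17 and 1.40 on the diabetic arrays. The negative-control spots had means of 2.21 to 4.21 per array, and all 8 means of this probe lay between the 5th and 95th percentile of those spots on their array. Its dimmer probe was below 0 on every array, from −3.39 to −0.721. All 8 relative levels, −0.454% to 0.482%, lay under the floor, so no log2 difference or fold is given. On the linear scale the means were 0.129% ± 0.184 and 0.118% ± 0.415 (SD, n = 4, two-sided exact permutation p = 1). A level below the detection of this array cannot be told apart from none.

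Of the mature strands shown above, miR-192 was thus the only one detected on any array. miR-215, which has the same seed as miR-192 and the same cluster as the other copy of miR-194, had 0 of 155 spots well above background. Its relative levels ran from −1.15% to −0.134%. The 3 base differences listed above separate the mature strands of miR-192 and miR-215. Whether the probes of one bind the other was not tested.

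Other miRNAs of the same organs were compared through lists chosen for their tissue. Of 7 miRNAs linked to liver, 3 were detected on any array, the members miR-122 and miR-192 and also miR-148a. The other 4 were detected on no array, as were 402 of all 567 mouse miRNAs (70.9%). miR-802, a miRNA of liver and pancreas, had 0 of 152 spots well above background, and miR-483, miR-215 and miR-194 were not detected either. miR-148a, a miRNA of liver and of several other tissues, was detected on all 8 arrays, with a log2 level of −4.30 ± 0.24 on control and −4.38 ± 0.39 on diabetic arrays (SD, n = 4). Its difference was −0.08 (SE 0.24, limma adjusted p = 0.879), and on control 4 it stood at −4.23, inside the range of the other control arrays.

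The summed relative level of the liver list, as a multiple of the 75th percentile, was 0.0825 to 0.239 on the control and 0.117 to 0.139 on the diabetic arrays. Control 4 had the highest sum, and the highest sum among the other control arrays was 0.125. On control 4 the members themselves gave most of the sum, 0.126 from miR-122 and 0.0610 from miR-192. Of the 3 tested miRNAs of the list 0 passed, 2 had positive differences and 1 a negative one, with a median of 0.08 against −0.06 over all 126. The 2 positive ones are miR-122 and miR-192 themselves, and the median is the difference of miR-122. The list thus restates their values and adds only miR-148a. A smaller number of cells of a type and less RNA per cell cannot be told apart in such bulk samples.

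The kidney and epithelial list held 11 miRNAs, of which 3 were detected on any array, miR-192, miR-196a and miR-196b. The 8 detected on no array are near the share over all mouse miRNAs (70.9%), so this count is not particular to the list. The miR-200 family, a mark of epithelial cells (miR-200a, miR-200b, miR-200c, miR-141 and miR-429), and miR-204 were detected on 0 arrays. miR-196a and miR-196b lie within Hox gene clusters and are expressed in tissues of the hind body, so their detection is not particular to kidney. The 3 tested miRNAs of the list, miR-192 among them, all had positive log2 differences, with a median of 0.25. Over all 126, 58 differences were positive and the median was −0.06. Of the 3, 0 passed with limma, and 0 had an unadjusted p under 0.05. Summed, the list stood at 0.325 to 0.568 on the control and 0.506 to 0.594 on the diabetic arrays. All 4 pancreas miRNAs of a further list (miR-375, miR-216a, miR-216b and miR-217) were detected on 0 arrays.

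Markers of muscle and blood were read on the same arrays. Of 6 skeletal muscle miRNAs 5 were detected, all but miR-499, and their summed level was 52.7 to 103 on the control and 77.9 to 107 on the diabetic arrays. miR-1, the main muscle miRNA, was detected on all 8, with a log2 level of 4.62 ± 0.35 on control and 4.96 ± 0.04 on diabetic arrays (SD, n = 4). Its difference was 0.34 (SE 0.22, limma adjusted p = 0.518). Of the 5 tested muscle miRNAs 0 passed with limma, 3 had positive differences and 2 negative ones, with a median of 0.09. The negative ones were miR-206 (−1.33, SE 0.44, limma adjusted p = 0.132, unadjusted p = 0.0115) and miR-208b (−0.53, SE 0.54, limma adjusted p = 0.699). All 4 red blood cell miRNAs were detected on at least 1 array, with sums of 1.82 to 3.10 on the control and 1.30 to 2.28 on the diabetic arrays. miR-451, the main red cell miRNA, differed by −0.33 on the log2 scale, with an SE of 0.35 and a limma adjusted p of 0.699. All 3 tested red cell miRNAs, miR-451, miR-16 (−0.10) and miR-486 (−0.02), had negative differences, and their median is the difference of miR-16. With limma 0 passed and 0 had an unadjusted p under 0.05. On control 1 to control 4 the red cell sum was 1.88, 3.10, 1.97 and 1.82, and on diabetic 1 to diabetic 4 it was 1.56, 1.30, 2.19 and 2.28. Among the control arrays, miR-122 was lowest where this sum was highest (control 2) and highest where it was lowest (control 4). Among the diabetic arrays the order was the other way, with miR-122 highest on diabetic 4, which had the highest sum, and lowest on diabetic 2, which had the lowest. miR-192 was highest on control 4 and on diabetic 2, the arrays with the lowest sum in their groups. Among leukocyte miRNAs 5 of 6 were detected, with sums of 0.383 to 2.09 on the control and 0.215 to 0.665 on the diabetic arrays, and control 4 stood at 0.463. The 3 tested leukocyte miRNAs all had negative differences, with a median of −0.80. With limma 0 of them passed and 1 had an unadjusted p under 0.05, miR-342-3p, named after its value was seen (log2 difference −0.80, adjusted p = 0.0611). The part of blood or of other cells in the member levels was not tested beyond these values.

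**Figure D4:**
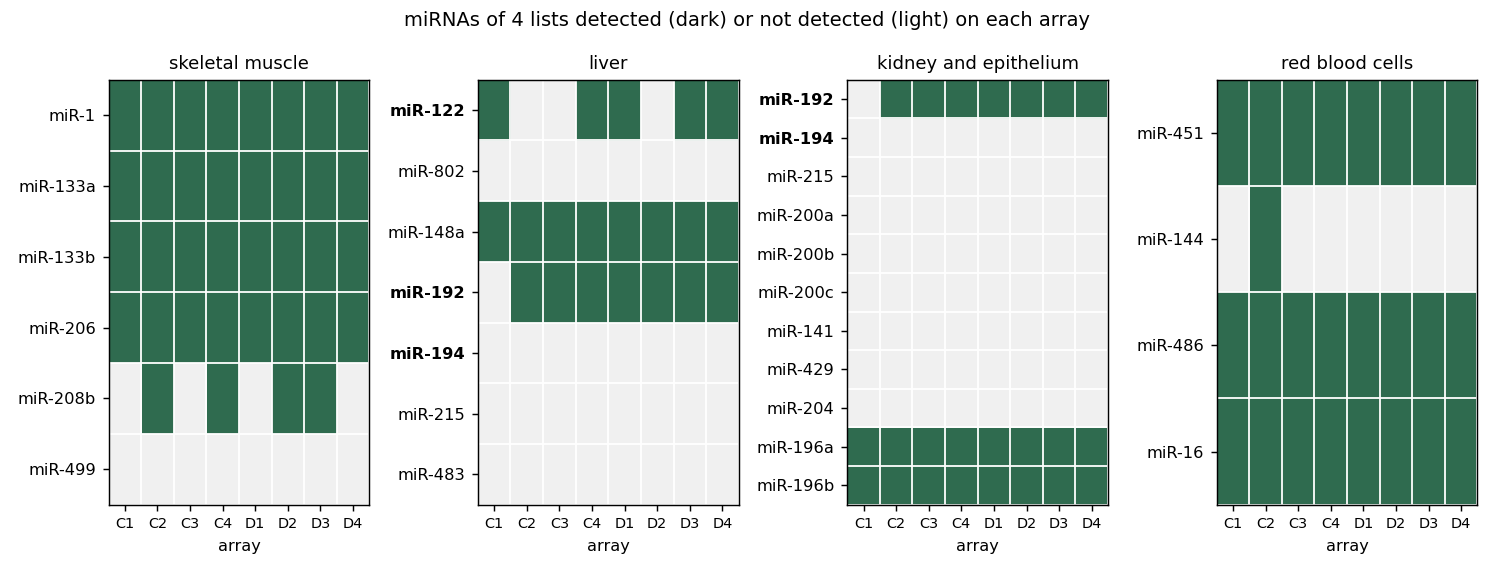
Detection of the miRNAs of 4 tissue lists (rows, members in bold) on the 8 arrays (columns, C control, D diabetic), dark where detected and light where not. Muscle and red blood cell miRNAs fill most of their panels, while 3 of 7 liver and 3 of 11 kidney and epithelial miRNAs have any dark cell and the row of miR-194 has none. Over all 567 mouse miRNAs, 402 (70.9%) were detected on no array.

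Across the 8 arrays the log2 levels of miR-122 and miR-192 had a Pearson correlation of 0.56 and a Spearman correlation of 0.46. Without the 2 arrays farthest from the median of miR-122, control 4 and diabetic 4, the Pearson correlation was 0.10, so it rested on those arrays. Among the tested miRNAs the pattern most like that of miR-122 belonged to miR-98, a member of the let-7 family (Pearson 0.83, Spearman 0.83, and 0.91 without these arrays). Then came miR-468 (Pearson 0.77) and miR-669c (Pearson 0.75), both at 0.40 without the same arrays. Of these, miR-98 was detected on 4 of the 8 arrays and its log2 levels ran only from −5.26 to −4.79, near the floor of −5.95. Those of miR-122 ran from −5.95 to −2.99. For miR-192 the likest were miR-30e (Pearson 0.88), miR-26b (0.85) and miR-133a* (0.82). Without control 1 and control 2, the arrays farthest from its median, these were 0.73, −0.06 and 0.17. These correlations describe 8 arrays in 2 groups, share the arrays' scaling and were picked as the highest of 125 each.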

How the data were processed

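The deposited values are spot intensities and flags of 0 or 1 from Feature Extraction 10.5, per the file headers, with background subtracted and no normalization between arrays. The scanner software's total intensity per miRNA is also deposited. Each labelling used 100 ng of RNA, per the labels' protocols. All 8 arrays lay on 1 slide in 1 scan.

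Outlier spots (15 of the members' spots) were dropped, spots averaged per probe, arrays divided by the 75th percentile of the 152 probes that every array detected, probes averaged per miRNA, floored at the 1st percentile of detected levels and converted to log2. The 126 miRNAs detected on at least 4 arrays were tested with limma 3.58.1 in R 4.3.3 (group as the single term, Benjamini-Hochberg adjustment over the 126, threshold 0.05). The fit was tested on simulated data. For single values, exact permutation tests were run, two-sided, with scipy 1.17.1. The number of arrays limits the precision. The members, the tissue lists and the rule for named miRNAs (the members, listed miRNAs of their clusters or tissues, and the 3 most correlated tested miRNAs) were chosen with earlier results of these data known. Alternatives covered scaling, background correction, probe summary, outlier spots, floor, detection filter, a replicate block and single arrays. Figures were drawn with matplotlib 3.10.9.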

Additional observations from a re-analysis of the deposited data

Results flagged for a closer look

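Groups of 4 arrays were checked for a single value apart from the rest, in 27 sets of values (members by level and by probe, miR-148a, miR-451 and miR-1 by level). In 2 of them the gap to the nearest array, divided by the whole range, exceeded Dixon's 95% critical value, and chance alone does so in about 1 in 20 sets. The dimmer probe of miR-122 read 14.2 on control 4, against 1.44 to 2.44 on the other control arrays, with a gap of 0.92 of the range. The brighter probe of miR-122 on the same array read 68.0 and its gap was 0.80, under the limit. miR-148a had a log2 level of −4.65 on control 3, against −4.23 to −4.16 on the other control arrays, with a gap of 0.85.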

How the results depend on the processing

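Neither miR-122 nor miR-192 passed in any of 23 alternatives each, with limma adjusted p from 0.483 to 0.998 and from 0.159 to 0.998. The difference of miR-192 was positive in all 23, from 0.12 to 0.59. That of miR-122 was positive in 17. It was −0.0014 with normexp on median intensities and −0.047 with the brightest probe of each miRNA. It was −0.26 without control 1 and diabetic 4, the dimmest arrays. Leaving out 1 array at a time gave −0.31 to 0.73 for miR-122 and 0.15 to 0.47 for miR-192. The relative level difference of miR-194 was −0.011 percentage points and ran from −0.13 to 0.18 with 1 array left out. It was 4.94 in percent of the percentile over all mouse probes, a far dimmer reference (exact permutation p = 0.914).

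Of the 126 tested miRNAs 6 passed. The count was 0 without scaling. With looser detection filters it was 2 of 143 (any spot above background), 2 of 165 (at least 1 array) and 2 of 185 (no filter). With the stricter filter, detection on all 8 arrays, it was 9 of 95 (7 higher, 2 lower). Even with no filter, miRNAs at the floor on all arrays were left out. The count was 10 with the brightest probe (8 higher, 2 lower) and 10 with the replicate block (7 higher, 3 lower). With 1 array left out it was 2 to 10 (10 without control 3, and 2 when the array left out was control 1 or 2, or diabetic 1, 2 or 3). The cause was not tested. Same-numbered arrays shared slide columns. Across miRNAs their deviations correlated at −0.29 to 0.51, and 4 of 8 arrays correlated best with their own number. miR-122 itself was highest in slide column 4 in both groups (log2 −2.99 on control 4 and −3.67 on diabetic 4). In column 2 it was at the floor on control 2, as on control 3, and at its lowest diabetic level on diabetic 2 (−5.76). The part of slide column or of pairing in this pattern was not tested. With the replicate block the differences were 0.08 for miR-122 and 0.27 for miR-192, and neither passed. The filter for detection on all 8 arrays removed both members. The planned normexp on mean intensities was replaced by medians. Alternatives with normexp, the brightest probe, any spot and 2 arrays left out were added after seeing the data. Signal little above background limits miR-122 and miR-192, and miR-194 was not above it.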
